A study of Mus musculus with 8 samples.

Results

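Ghrelin is a peptide hormone whose gene, Ghrl, was examined here together with Mboat4, which encodes the enzyme that acylates it, and Ghsr, which encodes its receptor. The genes were chosen as the probes whose gene name in the scanner files is Ghrl, Ghsr or Mboat4. Each gene had 1 probe, printed as 1 spot, so the 3 genes make up 3 of the 36083 genes and 3 of the 55681 probes on the array. The study measured RNA of whole small intestine from mouse embryos at stage E18.5 on 8 single-colour arrays. Of these, 4 were labelled control (Rfx6+/+, wild type) and 4 Rfx6 KO (Rfx6-/-, homozygous knockout), to find genes regulated by Rfx6, a transcription factor of the RFX family. The null allele was made by crossing mice with a floxed Rfx6 allele to CMV-Cre mice, whose Cre is active in most tissues. The resulting heterozygotes (Rfx6+/-) were intercrossed, so the deletion was not restricted to the gut. No other treatment is given in the labels, and nothing in them says whether the samples of a group came from separate embryos or litters, so p-values measure the spread between these samples.

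Ghrelin is cut from a precursor by prohormone convertases and is active on its receptor only after a serine has been acylated, usually with octanoate. The acyl group is added by ghrelin O-acyltransferase, the product of Mboat4, a member of the membrane-bound O-acyltransferase (MBOAT) family. The hormone is made mostly by endocrine cells of the stomach and also by cells of the small intestine and the fetal pancreas, and its receptor acts in the hypothalamus and pituitary on growth hormone release and appetite.

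The probe sequences below show which stretch of each transcript the values come from. The Ghrl probe lies on chromosome 6, 113666114 to 113666173 on mm9, minus strand, and starts at base 466 of transcript NM_021488. Its bases 20 to 49 are shown, with the polyadenylation signal AATAAA in capitals, so the probe reads the end of the message.

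Ghrl: taccactttaagAATAAAtgttcacctgta

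The Mboat4 probe lies on chromosome 8, 35187713 to 35187772 on mm9, plus strand, and starts at base 1312 of NM_001126314. All 60 bases are shown. In 1 reading frame the sequence is open up to a final TGA, which is in capitals.

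Mboat4: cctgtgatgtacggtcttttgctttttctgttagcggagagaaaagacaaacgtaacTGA

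The Ghsr probe lies on chromosome 3, 27276818 to 27276877 on mm9, plus strand, and starts at base 4318 of NM_177330. Its bases 1 to 30 are shown.

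Ghsr: gttgaggttatgatggacagacttaacact

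All 8 arrays lay on 1 slide and were read in 1 scan, and the software marked 57.4% to 67.1% of an array's probes as well above background. Slide row 1 held control 1 and knockouts 2, 3 and 4; slide row 2 held controls 2, 3 and 4 and knockout 1. The Rfx6 probe did not separate the groups: its mean level was -3.14 for the controls (SD 0.40, n = 4) and -2.76 for the knockouts (SD 0.56, n = 4), a log2 difference of 0.38 (limma adjusted p 0.503). Which exons were deleted is not given in the sources used here, so this probe does not check the labels, and directions below refer to the arrays as labelled. All 8 markers of small intestinal epithelium were well above background on every array. Of the 23282 genes tested, 1145 (4.92%) were called at a limma adjusted p under 0.05, with 602 (2.59%) lower and 543 (2.33%) higher on the knockout arrays, and the median log2 difference of all genes tested was -0.05. An unadjusted p under 0.05 was reached by 4766 genes (20.5%). The groups did not overlap for 3409 genes (14.6%). Of the 3 genes described here, Ghrl and Mboat4 were tested, and both were called lower with groups that did not overlap, while Ghsr did not pass the filter on dim probes.

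Ghrl fell about 116-fold on the knockout arrays, a log2 difference of -6.85, and remained measurable there; the difference was -6.26 with normexp background correction and -6.24 in the authors' series matrix. The processed signals of its probe, in scanner units after background subtraction, were 14012, 15859.8, 12509.6 and 12765 on controls 1 to 4. On knockouts 1 to 4 they were 122, 117, 138 and 112. The groups are far apart, and within each group the arrays lie close together, with a coefficient of variation of 11.1% for control and 9.16% for knockout signals.

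Levels were taken as log2 of the processed signal minus the log2 of the array's 75th percentile, so a level of 0 is the signal of that percentile. On this scale Ghrl was at 4.40, 4.50, 4.28 and 4.19 on the control arrays (4.35 ± 0.14, SD, n = 4). It was at -2.61, -2.56, -2.37 and -2.50 on the knockout arrays (-2.51 ± 0.10, SD, n = 4). The lowest control array thus stood 6.56 log2 units above the highest knockout array.

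The log2 difference for Ghrl was -6.85 ± 0.09 (SE, limma adjusted p 2.97e-09), and the fold at 1 standard error to either side was 108 to 124. An exact permutation test (two-sided, 70 splits of the arrays) gave 0.0286, the smallest p that 4 against 4 arrays can give. Ghrl was well above background on 4 of 4 knockout arrays, at 3.38 to 7.04 times the lowest signal that was well above background on the same array. Among the 21888 genes measured above background on all 8 arrays, this was the largest fall on this scale. Among all 23282 genes tested it ranked 4, behind Gip, Gcg and Sst, which were not well above background on all knockout arrays. In bulk tissue, fewer ghrelin cells and less Ghrl message per cell cannot be told apart.

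Mboat4, the acyltransferase gene, fell by 2.07 on the log2 scale, from a level close to the detection limit. It passed the filter only through the control arrays, so a low value on the knockout arrays was favoured by the filter. Its processed signals were 89.5, 59.7, 56.6 and 62.1 on controls 1 to 4, all well above background. They were 14.6, 9.82, 31.7 and 14.9 on knockouts 1 to 4, of which 1 (knockout 3) was well above background. The groups did not overlap, but control 1 stood above the other controls and knockout 3 above the other knockouts.

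Mboat4 levels were -2.89, -3.55, -3.51 and -3.49 on the control arrays (-3.36 ± 0.32, SD, n = 4). They were -5.67, -6.13, -4.49 and -5.41 on the knockout arrays (-5.43 ± 0.69, SD, n = 4), so the spread among knockouts was the wider of the groups. The difference was -2.07 ± 0.32 (SE), with limma adjusted p 0.00783 and exact p 0.0286, or 4.19-fold. Since 3 knockout arrays lie at background, this fold and its error are not a measured interval. The 3 dim knockout arrays were also set to the lowest signal well above background on their own array. The difference was then -1.46, a 2.76-fold fall, an estimate chosen after the data were seen. The filter kept Mboat4 because its control signals were all well above background. Much of this separation was thus set in advance, and no p-value is read from it.

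The size of the Mboat4 difference depended on how background was treated. With normexp background correction it was -0.67 (limma adjusted p 0.0114), and in the authors' series matrix, whose values carry no background subtraction, it was -0.58 (limma adjusted p 0.0325). Within slide row 1 alone it was -2.46 (limma adjusted p 0.147) and within row 2 alone -2.15 (limma adjusted p 0.152), each with a single array of one group, so the direction was the same in both rows while the call was lost. The share of each array's lowest measurable signal that Mboat4 reached was 1.59 to 4.28 on control arrays and 0.406 to 1.61 on knockout arrays, so on this measure the groups overlapped, with knockout 3 above control 2.

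Ghsr, the receptor gene, was not detected in either group. Its processed signals were 5.30, 9.28, 5.63 and 8.80 on controls 1 to 4 and 8.90, 4.91, 5.05 and 4.03 on knockouts 1 to 4. On all 8 arrays the software had replaced the signal of this spot with a surrogate value, which it does when a spot is too near background for a subtracted signal. The values therefore track each array's background, at 0.247 to 0.264 of its lowest signal well above background, and hold no order among samples. The probe was well above background on 0 of 8 arrays, so no difference or fold is given. Neither Ghrl nor Mboat4 had a surrogate value on any array.

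**Figure D1:**
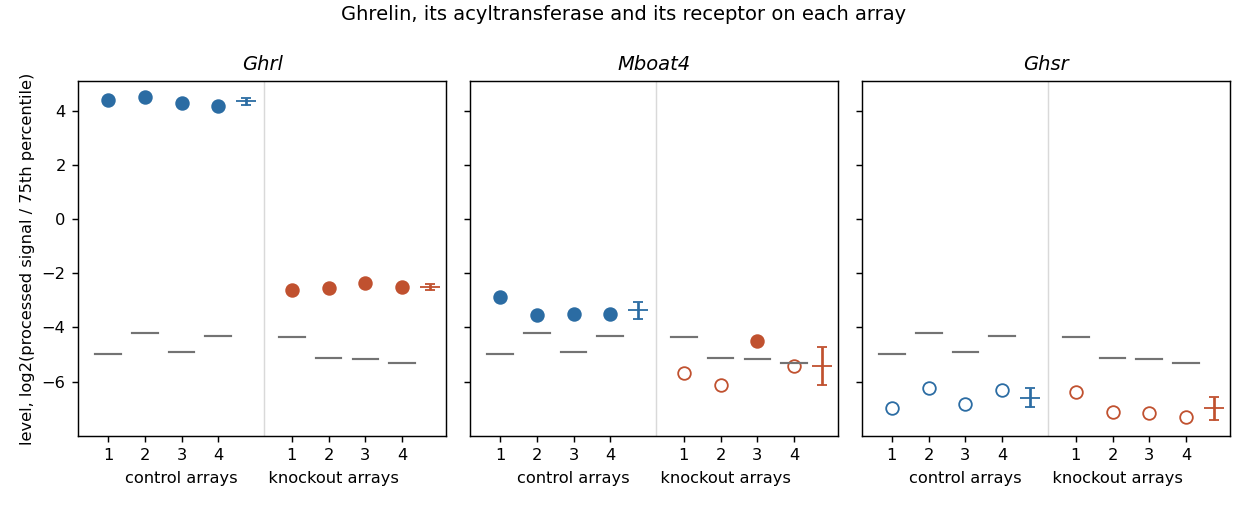
Level of Ghrl, Mboat4 and Ghsr (log2 of the signal over the array's 75th percentile) on each of the 4 control and 4 knockout arrays; filled points are well above background, open points are not, grey dashes mark the array's lowest signal well above background, and side bars give the mean ± SD. Ghrl sits between 4.19 and 4.50 on control and between -2.61 and -2.37 on knockout arrays, Mboat4 crosses the grey dashes on 3 knockout arrays, and Ghsr lies under them on all 8.

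The other genes of the ghrelin pathway moved less than Ghrl. Among the 7 genes of processing and competing ligands, Ghrl and Leap2 fell and 5 were not called, with a median log2 difference of -0.12. For this list and those below, the share called over all genes tested was 4.92%. Leap2 encodes the liver and gut peptide that blocks the ghrelin receptor. Its levels were 5.49, 5.56, 5.18 and 5.02 on the control arrays and 4.07, 4.03, 4.41 and 4.51 on the knockout arrays. The groups did not overlap, and every array was well above background. The log2 difference was -1.06 ± 0.16 (SE), a 2.08-fold fall (limma adjusted p 0.00707); within slide row 1 the adjusted p was 0.168 and within row 2 it was 0.121.

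The genes of peptide hormone processing enzymes gave no call. Pcsk1, the prohormone convertase that cuts proghrelin, differed by -0.12 ± 0.10 (SE, limma adjusted p 0.554). Pcsk2, a related convertase, differed by -0.14 ± 0.07 (SE, limma adjusted p 0.301), with groups that did not overlap (14.6% over all genes). Furin, Cpe (carboxypeptidase E) and Pam (which amidates many peptide hormones) had differences of 0.23, 0.12 and 0.18, and none was called.

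Among the 6 genes of acylation and deacylation, Mboat4 and Bche fell and 4 were not called, with a median log2 difference of -0.27. Bche encodes butyrylcholinesterase, a serum esterase that can remove the acyl group of ghrelin. Its levels were 2.33, 2.39, 2.11 and 2.28 on control and 1.49, 1.38, 1.71 and 1.76 on knockout arrays, again without overlap. The difference was -0.69 ± 0.11 (SE), a 1.62-fold fall (limma adjusted p 0.00850); the call was lost within slide row 1 (adjusted p 0.233) and row 2 (0.175). Lypla1, an acyl-protein thioesterase reported to deacylate ghrelin, differed by -0.39 (limma adjusted p 0.126), and Notum, a secreted deacylase, by -0.15 (0.458).

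Of the 7 genes of the receptor and its partners, 5 were tested and 1 was called. Ghsr and Mrap2, which encodes a partner protein of the receptor, did not pass the filter; Mrap2 was well above background on 2 knockout arrays and on no control array. Gna11, a G protein subunit of the Gq family through which the receptor signals, differed by -0.42 ± 0.09 (SE, limma adjusted p 0.0350). This call did not hold without control 1 (adjusted p 0.0939), control 3 (0.0723), control 4 (0.0795), knockout 1 (0.109), knockout 2 (0.108) or knockout 4 (0.0666), nor with quantile normalization (0.0566), median centring (0.162), no filter (0.110) or slide row as a block (0.0585). Its relative Gnaq differed by 0.03, and Gpr39, a receptor of the same family as Ghsr, by -0.64 ± 0.30 (SE, limma adjusted p 0.270). Of 7 receptors related to Ghsr, 3 were detected well enough to be tested and none was called by limma. An unadjusted p under 0.05 was reached by 1 of the 3 (20.5% over all genes).

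**Figure D2:**
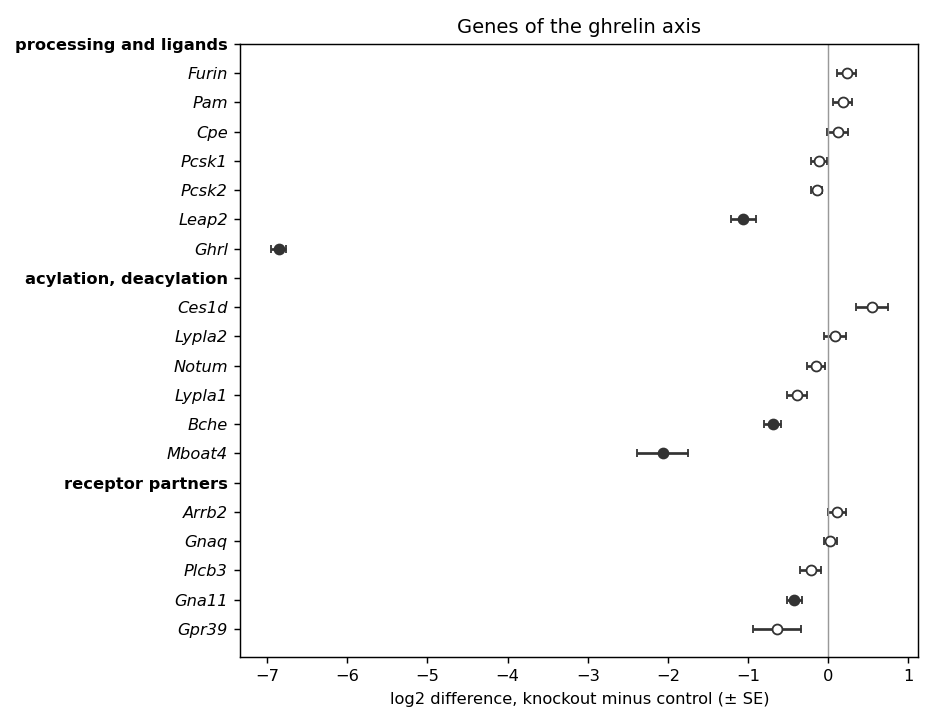
Log2 difference, knockout minus control, with its standard error for the tested genes of the ghrelin pathway, grouped by role; filled points passed a limma adjusted p of 0.05. Ghrl at -6.85 lies far from the rest, followed by Mboat4 at -2.07, Leap2 at -1.06 and Bche at -0.69.

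The enzyme family of Mboat4 did not move one way. Of 11 MBOAT genes, 3 fell (Mboat4, Lpcat3 and Dgat1), 2 rose (Mboat1 and Mboat2) and 6 were not called, with a median of -0.08. Over all genes tested, 4.92% were called. An unadjusted p under 0.05 was reached by 7 of the 11, against 20.5% of all genes. Mboat4 had the largest difference on the scale used here but not with normexp correction, where it was -0.67 against 0.92 for Mboat1, nor in the series matrix, where it was -0.58 against 0.94. Mboat1, a lysophospholipid acyltransferase gene, was at 1.28, 1.06, 1.27 and 1.05 on control and at 2.33, 1.98, 1.88 and 2.17 on knockout arrays. It rose by 0.92 ± 0.12 (SE), or 1.90-fold (limma adjusted p 0.00311), and lost its call only within slide row 1 (adjusted p 0.182) among the alternatives tried.

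Lpcat3, Mboat2 and Dgat1 were called nearer to the threshold, and each lost its call when certain arrays were left out in turn. Their differences kept their direction throughout, at -0.72 to -0.57 for Lpcat3, 0.56 to 0.80 for Mboat2 and -0.54 to -0.41 for Dgat1. Lpcat3, whose product remodels membrane phospholipids in the gut epithelium, differed by -0.67 ± 0.12 (SE, limma adjusted p 0.0165), and by an adjusted p of 0.0501 without control 1 and 0.0640 without knockout 1. Mboat2, a relative of Mboat1, differed by 0.67 ± 0.15 (SE, limma adjusted p 0.0359). Its call was lost when any single array other than knockout 3 was left out, with adjusted p from 0.0521 (without control 2) to 0.110 (without control 1). Dgat1, which completes triglyceride synthesis, differed by -0.47 ± 0.10 (SE, limma adjusted p 0.0321). Its call was lost without control 1 (adjusted p 0.0993), control 3 (0.0768), control 4 (0.0836), knockout 1 (0.111), knockout 2 (0.0960) or knockout 4 (0.0636). Porcn, which acylates Wnt proteins, and Hhat, which acylates Hedgehog proteins, differed by 0.34 and 0.04 and were not called.

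Acyl-CoA synthetases activate fatty acids and so make the kind of acyl donor that the acyltransferase uses. Of 10 such genes, 6 were tested, of which Acsl5 fell, Acsm3 rose and 4 were not called, with a median of -0.12. Acsm3, a medium-chain enzyme gene, was at -1.32, -1.28, -1.60 and -1.78 on control and at 0.68, -0.17, 0.00 and 0.57 on knockout arrays. It rose 3.40-fold, by 1.77 ± 0.21 (SE, limma adjusted p 0.00212; 0.147 within slide row 1). Acsl5, a long-chain enzyme gene of the intestinal epithelium, was at 6.54, 6.35, 6.46 and 6.44 on control and at 5.84, 5.76, 5.98 and 5.98 on knockout arrays. It differed by -0.56 ± 0.08 (SE, limma adjusted p 0.00744). The Acsl5 call was lost under quantile normalization and within either slide row, and Acsl1, a close relative, differed by -0.09 (limma adjusted p 0.661).

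**Figure D3:**
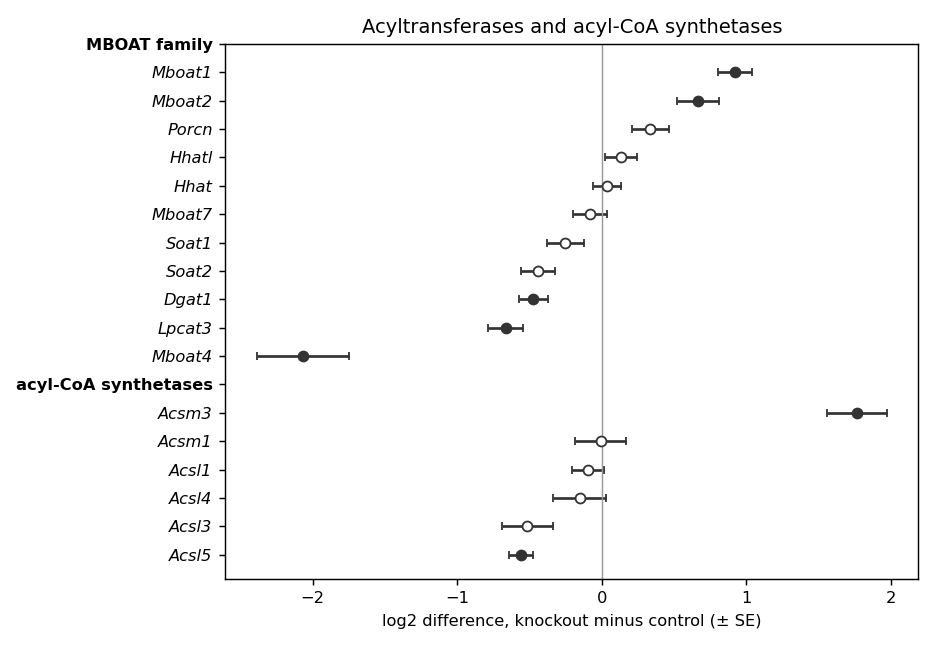
Log2 difference, knockout minus control, with its standard error for the tested MBOAT acyltransferase and acyl-CoA synthetase genes; filled points passed a limma adjusted p of 0.05. Mboat4 at -2.07 and Acsm3 at 1.77 mark the ends, and the other genes lie between -0.67 and 0.92.

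Receptors of ghrelin cells gave no call. Of 13 receptors known from gastric ghrelin cells, 8 were tested and none was called by limma, with 2 at an unadjusted p under 0.05 (20.5% over all genes); the nearest to the threshold was Ffar2, a short-chain fatty acid receptor, at 0.39 (limma adjusted p 0.116).

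Among transcription factors of endocrine and gut cells, Foxa1 and Foxa2, forkhead factors of gut epithelium, rose by 1.23 (standard error 0.14, limma adjusted p 0.00162) and 1.00 (standard error 0.14, limma adjusted p 0.00456). Both lost the call within slide row 1, at adjusted p 0.142 and 0.201. Neurog3, the factor that starts endocrine differentiation, differed by 0.46 (limma adjusted p 0.0820), and Isl1, expressed in several endocrine cell types, by -0.86 (0.0823); neither was called.

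Of 6 enteroendocrine markers, Syp (synaptophysin) differed by -0.49 (limma adjusted p 0.00969; 0.210 within slide row 1 and 0.343 within row 2) and 5 were not called. Chga and Chgb, granule proteins of endocrine cells, differed by 0.26 and 0.17. The log2 of the summed level of these 6 markers ran from 5.20 to 5.84 on control and from 5.61 to 5.88 on knockout arrays, so the groups overlapped. Chgb, the brightest of the list, weighs most in this sum, with a mean level of 4.88 on control and 5.05 on knockout arrays.

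Ghrl fell together with most other gut hormone genes, though by different amounts. Of 10 other hormone genes, 9 were tested and 7 were lower, with a median log2 difference of -5.16. Gcg, Gip and Sst passed the filter only through the control arrays, so they could only be lower, and for Mln no probe was matched. Gip, the incretin of the upper gut, was at least 172-fold lower and Gcg, the proglucagon gene, at least 111-fold lower, neither being well above background on any knockout array. In such bounds each knockout array enters at the higher of the probe's own signal and the array's lowest signal well above background. With normexp correction, which adds an offset to dim signals, the log2 differences were -5.48 for Gip, -5.08 for Gcg and -5.00 for Sst. On the knockout arrays Gcg carried a surrogate value on 4 arrays, Gip on 1 and Sst on 1.

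The hormones differed in how far they fell, and Ghrl could be set against each by its change within the same arrays. This was tested for 8 genes by an exact two-sided permutation test, with p adjusted over the 8 (Benjamini-Hochberg). Ghrl fell further than Cck, the cholecystokinin gene, with a change of Ghrl minus that of Cck of -1.69 (range -1.88 to -1.46 over the 16 pairs of a knockout and a control array; exact p 0.0286, adjusted 0.0381). Cck itself differed by -5.16 ± 0.09 (SE), a 35.9-fold fall (limma adjusted p 8.04e-09).

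Ghrl also fell further than Sct, the secretin gene, with a difference between the changes of -5.30, and than Insl5, at -5.48. Against Gast, the gastrin gene, which differed by -0.16 and was not called, it was -6.70. Each of these had an exact p of 0.0286 and 0.0381 after adjustment. With any 1 array left out the adjusted p of these pairs and of Cck was 0.0653 or 0.0762. The smallest exact p is then 0.0571, so no pair could pass the threshold and this is no check of the pairs. Against Mboat4 the value was -4.79, but Mboat4 was well above background on only 1 of 4 knockout arrays, so the size of its own fall has no upper limit and no order is read from this pair. Sct differed by -1.55 ± 0.10 (SE, limma adjusted p 9.67e-05). Insl5 differed by -1.38 ± 0.31 (SE, limma adjusted p 0.0400), a call lost without control 1 (0.0966), control 3 (0.0791), control 4 (0.0898), knockout 1 (0.121), knockout 2 (0.104) or knockout 4 (0.0689).

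Pyy, the peptide YY gene, varied between knockout arrays. Its level was 1.41 on knockout 1 against -2.78 to -2.56 on knockouts 2 to 4, and its difference of -2.65 was not called (limma adjusted p 0.127). Without knockout 1 the difference was -3.68 (limma adjusted p 2.58e-04). The change of Ghrl minus that of Pyy was -4.20 (exact p 0.0286, adjusted 0.0381) and -3.14 without knockout 1. Ghrl on knockout 1, at -2.61, was the lowest of its group, so the array that stood apart for Pyy did not stand apart for Ghrl.

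For Nts and Sst the comparison with Ghrl depended on the background method. Nts, the neurotensin gene, fell 94.9-fold, a difference of -6.57 ± 0.16 (SE, limma adjusted p 7.54e-08), which was -5.40 with normexp correction and -5.33 in the series matrix. The change of Ghrl minus that of Nts was -0.29, with a range of -0.90 to 0.29 over the 16 array pairs (exact p 0.257, adjusted 0.257). For Sst, the somatostatin gene, which differed by -7.25 but was well above background on only 1 of 4 knockout arrays, it was 0.40, with a range of -0.50 to 0.87 (exact p 0.114, adjusted 0.131). Neither passed the threshold on this scale. With normexp correction the values became -0.87 for Nts and -1.26 for Sst, and in the series matrix -0.91 and -1.23, each with an exact p of 0.0286 (adjusted 0.0286). Both then passed the threshold, with a larger fall for Ghrl than for Nts on these scales, and for Sst the sign turned. With Sst well above background on only 1 of 4 knockout arrays, the size of its fall has no upper limit. No order of Ghrl and Sst is read from this pair.

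**Figure D4:**
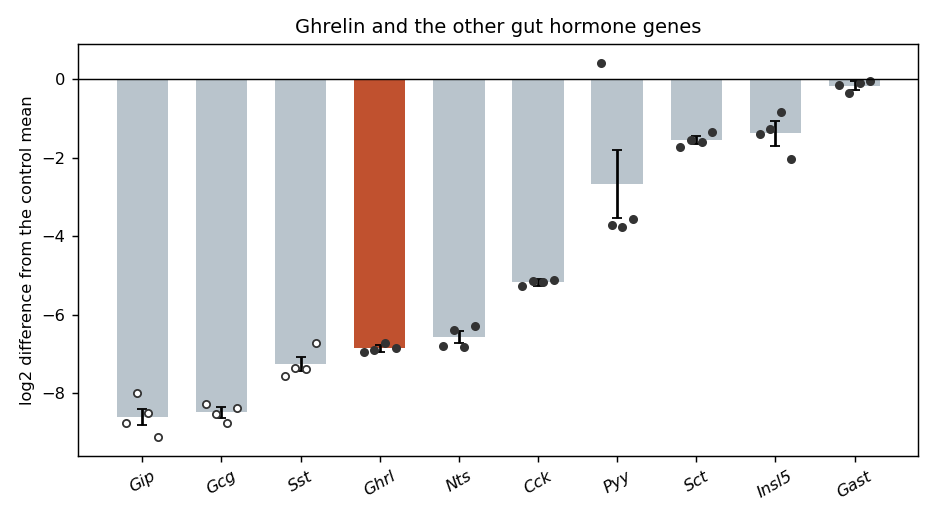
Change of each gut hormone gene on the knockout arrays, in log2 units from the control mean; bars give the difference with its standard error and points the 4 knockout arrays, open where the gene was not well above background on all 4 (Gip, Gcg, Sst). The Ghrl bar at -6.85 lies next to Nts at -6.57 and Sst at -7.25, Gast lies at -0.16, and 1 point of Pyy stands apart from its other points.

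The genes whose pattern over the 8 arrays was closest to that of each gene were found by the root mean square difference of levels, each gene centred on its own mean, among 23171 genes compared. For Ghrl they were Nts (0.29), Sst (0.34), Cck (0.85), Gcg (0.85) and Gip (0.93), all gut hormones, though Sst, Gcg and Gip rest partly on signals at background. For Mboat4 they were Rasal1 (0.20), Apcs (0.36), Glod5 (0.41), Csf2 (0.42) and Reg3b (0.43). Rasal1, a Ras GTPase-activating protein gene, differed by -2.18 ± 0.27 (SE). Like Mboat4, Rasal1 passed the filter only through the control arrays, with 3 of 4 knockout arrays well above background, so no p-value is given. It was highest among the knockouts on knockout 3, at -3.55. Rasal1 was picked for its likeness to Mboat4 on these same arrays, so this shared high value is no separate result. Reg3b, a secreted lectin gene of the gut epithelium, differed by -2.22 ± 0.21 (SE, limma adjusted p 7.28e-04). Levels were not scaled, so this measure picks genes with a difference of like size, and the Mboat4 pattern among knockouts rests mostly on signals at background.

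Markers of neighbouring organs also differed between the groups. Of 8 markers of stomach epithelium, the tissue that makes most ghrelin, 6 were higher on the knockout arrays, and these 6 passed the filter only through the knockout arrays. The log2 of the summed level of the list ran from -0.71 to 1.59 on control and from 8.51 to 9.42 on knockout arrays. Gkn2, a gastrokine gene, was at least 2102-fold higher and Cblif, gastric intrinsic factor, at least 93.5-fold higher; neither, nor Atp4a, was well above background on a control array. Muc5ac and Pgc, the other 2 markers, differed by 0.61 and 0.24 and were not called. The Ghrl fall and these marker values are differences between the same groups, and a link between them was not tested.

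Of 6 markers of endocrine pancreas, which also holds ghrelin cells before birth, 5 were tested and 3 were lower. Iapp, the amylin gene, differed by -3.39 (limma adjusted p 2.94e-05), and by -1.99 with normexp correction and -1.97 in the series matrix. Ins1, an insulin gene, differed by -2.27 (0.00929), and by -1.22 and -1.19 under the same alternatives; it passed the filter only through the control arrays, with 3 of 4 knockout arrays well above background. Ins2 differed by -0.78 (0.0232), and lost its call without control 3 (0.0651), knockout 1 (0.0882) or knockout 2 (0.0760). The log2 of the summed level of the list ran from 2.64 to 2.85 on control and from 2.39 to 2.50 on knockout arrays. Mafa, the brightest of the list, made up most of this sum. Its mean level was 2.26 on control and 2.22 on knockout arrays (limma adjusted p 0.764). Pdx1 differed by -1.09 (limma adjusted p 0.0628) and was not called, and Ppy did not pass the filter. Exocrine pancreas markers gave 4 tested genes with none called by limma and 1 at an unadjusted p under 0.05 (20.5% over all genes). Their summed levels were 2.52 to 4.23 on control and 2.00 to 3.87 on knockout arrays. Pnlip was well above background on 0 of 8 arrays. Of 8 small intestinal markers, 3 were lower and 5 were not called. The 3 were Fabp2 (-0.42, limma adjusted p 0.0483), Apoa4 (-0.61, 0.0222) and Lct (-0.75, 0.0297). All 3 were called with normexp correction, but in the series matrix Apoa4 (0.0504) and Lct (0.127) were not, while Fabp2 was (0.0297). The summed levels of the 8 were 10.33 to 10.54 on control and 9.87 to 10.12 on knockout arrays. The part of these tissues in the values for Ghrl and Mboat4 was not tested.

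The promoter of Ghrl was searched because RFX factors bind the X-box, a motif whose core is GTTGCC. RefSeq windows on GRCm38.p6, from 250 bases before to 50 bases after a gene start, were read on both strands; Ghrl has 4 windows and Ghsr 1. The core was found in 1 of the 4 Ghrl windows, from 20 to 15 bases before the start, within chr6:113717695-113717724 on the minus strand, with the core in capitals.

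Ghrl promoter: agaacctggaatGTTGCCacttctggcagt

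No window of Ghsr, Cck, Gast, Gcg, Gip, Insl5, Nts, Pyy, Sct or Sst held these letters, and 4111 of all 32851 windows (12.5%) did. Insl5 and Pyy had 2 windows each and the others 1, so Ghrl, with 4, had more chances of a match. The full X-box was in 502 windows (1.53%) and in none of these genes. A match of this length is a description of the letters and not a binding site, and no binding was measured.

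The call for Ghrl held under each of the 22 alternatives tried, with differences from -6.93 to -6.24 and limma adjusted p from 3.88e-11 to 2.64e-05. Mboat4 could be tested under 21 of them, with differences from -2.46 to -0.58, and an adjusted p under 0.05 was reached under 19. With the filter used, Mboat4 passed only through the control arrays, so these calls are not counted as support.

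**Figure D5:**
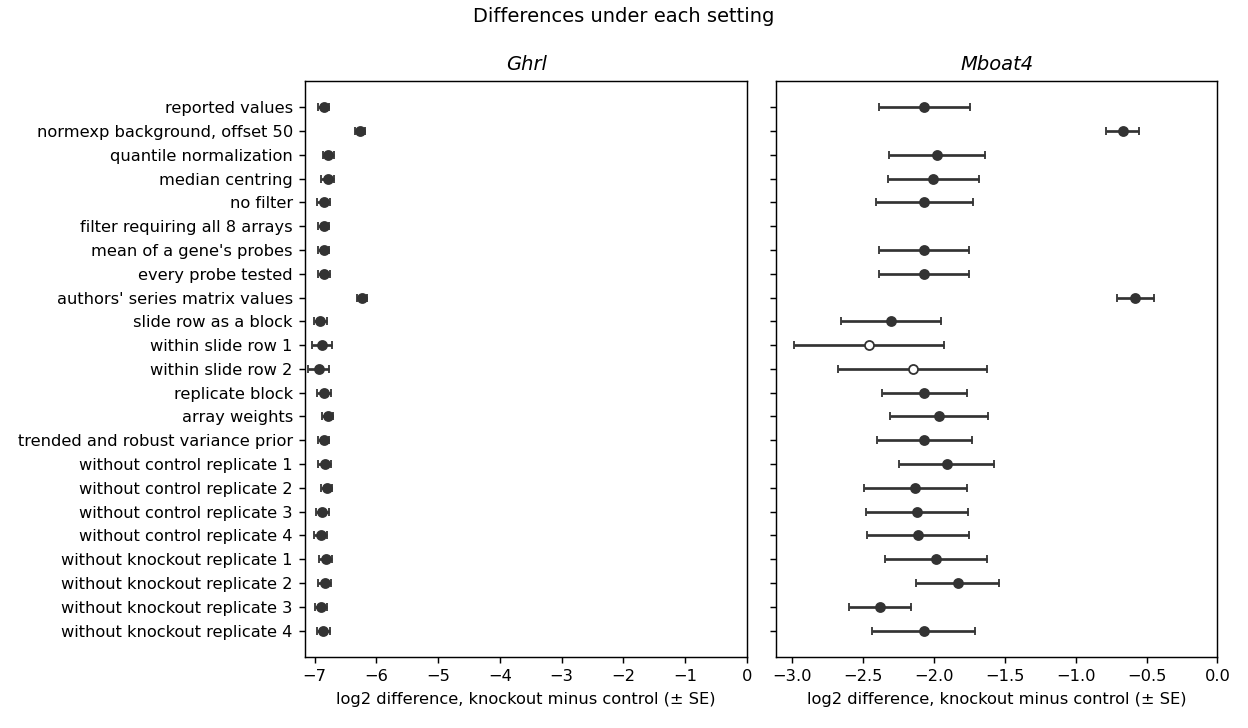
Log2 difference, knockout minus control, with its standard error for Ghrl and Mboat4 under each processing alternative; open points did not pass a limma adjusted p of 0.05, and a blank marks the filter that Mboat4 does not pass. Ghrl stays between -6.93 and -6.24, while Mboat4 lies between -2.46 and -0.58 and is smallest with normexp correction and in the series matrix.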

How the data were processed

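Per the labels' protocols, total RNA was extracted with TRI-reagent and 100 ng went into cyanine 3 labelling. The deposited scanner files hold an intensity per spot, which Agilent Feature Extraction 10.10.1.1 had background-subtracted, per the file headers. The authors' series matrix holds an intensity per spot that matched quantile-normalized spot medians (largest gap 0.5, median of every column 129.6) and served as an alternative.

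Control spots (3671) and outlier spots (153 to 355 per array) were left out, and spots of a probe averaged. Levels are log2 minus the 75th percentile, which lay at 636 to 741 signal units. Probes well above background on all 4 arrays of a group were kept (31668 of 55681), and the probe with the highest mean stood for its gene. A GRCm38 gene table was used for names, by current symbol (26320 probes), accession (2864) or synonym (492); 26005 kept the name in the file. Groups were compared with lmFit and eBayes (limma 3.58.1, R 4.3.3). Tests were two-sided, and p-values were adjusted over all genes (Benjamini-Hochberg); the fit was tested on simulated data. The number of arrays limits the precision.

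Alternatives were normexp correction (offset 50), median centring, quantile normalization, the series matrix, a filter on all 8 arrays or none, averaged probes per gene, every probe tested alone, slide row or replicate number as a block, each slide row alone, array weights, a trended robust prior, and leaving out each array. Named were the 3 genes, the genes of lists that passed the threshold or on which a sentence turns, the 5 nearest patterns, and neighbouring genes. The genes and lists were chosen with earlier results of these data known. Some list genes are not reported here.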

Additional observations from a re-analysis of the deposited data

Results flagged for a closer look

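In 7 of 86 groups of 4 arrays (8.14%), 1 array stood apart from the other arrays of its group by Dixon's test at the 95% level, where chance gives about 1 in 20. Mboat4 on control 1 was at -2.89, above the other controls at -3.55 to -3.49. Pyy on knockout 1 was at 1.41, above the other knockouts at -2.78 to -2.56. Sst on control 2 was at 1.75, below the other controls at 1.98 to 2.03. Furin on control 2 was at 2.31, below 2.73 to 2.76, and Lypla2 on the same array was at 4.16, below 4.67 to 4.70. Ces1d, a carboxylesterase gene, on knockout 4 was at -2.36, below -1.91 to -1.85. Rfx6 on control 4 was at -3.74, below -2.98 to -2.91. No array of either group stood apart for Ghrl by this test.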

How the results depend on the processing

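Against 602 lower and 543 higher genes, limma called 253 lower with median centring (545 higher, so the share of lower calls moved), 203 lower and 298 higher without a filter, 54 and 69 within slide row 1, 57 and 242 within slide row 2, 148 and 268 with the replicate block, and 1130 lower (782 higher) with array weights. Quantile normalization gave 469 lower and 624 higher. With any single array left out, lower genes numbered 217 to 589 and higher genes 335 to 510. Replicate numbers did not pair the samples (correlations of deviations -0.07, -0.17, 0.07 and -0.41). With the replicate block, Ghrl kept its call, while Leap2 (limma adjusted p 0.0705), Bche (0.0750), Gna11 (0.129), Mboat2 (0.115), Lpcat3 (0.0653), Dgat1 (0.0999), Acsl5 (0.0587), Insl5 (0.0612), Ins1 (0.0791), Ins2 (0.0907) and Syp (0.0811) did not. The limma adjusted p of Mboat4 was 0.0367 there, which is not read as support, since the filter favoured a low knockout value. Mboat4 differed by -2.46 (adjusted p 0.147) within slide row 1 and -2.15 (0.152) within row 2, where the lone array of a group is assumed to vary like the others, and it could not be tested under the filter on all 8 arrays. The change of Ghrl minus that of Nts was -0.87 with normexp correction and -0.91 in the series matrix (adjusted p 0.0286), and for Sst it reversed to -1.26 and -1.23. Without 1 array the 6 pairs that had been under the threshold had adjusted p of 0.0653 or 0.0762, since fewer splits exist, and ran from -5.01 to -4.52 (Mboat4), -1.74 to -1.66 (Cck), -5.37 to -5.23 (Sct), -4.62 to -3.14 (Pyy), -6.82 to -6.62 (Gast) and -5.72 to -5.21 (Insl5). No order is read from the Mboat4 pair. The causes of these shifts were not tested. Signal over background limits Mboat4 on knockout arrays and Ghsr on all arrays: 16.9% to 25.3% of probes carried a surrogate value on an array.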

Other observations

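The genes on either side of Ghrl, Mboat4 and Ghsr, in the order of a GRCm38 gene table, were also read. Of 12 such genes tested, the nearest 2 on each side of each gene, limma called 0, and 6 were at an unadjusted p under 0.05, against 20.5% of all genes tested. Next to Ghrl, Tatdn2 differed by -0.53 ± 0.22 (SE, limma adjusted p 0.222) and Sec13, a coat protein gene of vesicle transport, by -0.45 with a standard error of 0.12 (0.0755). Next to Mboat4, Dctn6, a dynactin subunit gene, differed by -0.13 and Leprotl1 by 0.20. Next to Ghsr, Tnfsf10, the gene of the death ligand TRAIL, differed by 0.50 and Fndc3b by 0.15.

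Of 6 genes of the growth hormone axis, on which ghrelin acts, 3 were tested and limma called none. An unadjusted p under 0.05 was reached by 1 of the 3 (20.5% over all genes). Ghrh, growth hormone releasing hormone, differed by 0.34 (limma adjusted p 0.469) and Igf1 by -0.14 (0.443). Npy was well above background on 0 of 8 arrays.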
